A study of Mus musculus with 6 samples.

Results

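The transcripts of 10 heat shock chaperone genes were followed in bulk RNA of 6 castration-resistant prostate tumours. The genes were taken by symbol from a table of 21718 genes, and all 10 were present and passed the filter on low counts, among 15963 genes tested. The tumours arose in mice of a genetic prostate cancer model, the same in both groups. These hosts were irradiated (900 rad) when 6 weeks old and given bone marrow, castrated when 8 weeks old, and sampled 16 weeks later. The marrow donors were F10fl/fl mice without Cre (the F10-intact group, 3 samples) or F10fl/fl mice with LysM-Cre+ (the F10-deleted group, 3 samples). Coagulation factor X is the product of F10, and LysM-Cre acts in myeloid cells, so tumour and stromal cells of the host kept the gene in both groups. The question was how myeloid F10 in the transplanted marrow bears on the tumour transcriptome. In each group the samples carry the numbers 1, 3 and 4, and the labels do not state that each came from its own animal. The p-values therefore speak only of the spread between these samples, which may be technical.

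Heat shock proteins are molecular chaperones: they hold, fold or refold other proteins. HSP70 proteins bind short exposed stretches of unfolded clients, with J-domain proteins (HSP40) delivering the client and HSP110 proteins exchanging the bound nucleotide. HSP90 matures kinases and steroid receptors. Small heat shock proteins hold unfolded clients without using ATP, and HSP60 with HSP10 folds proteins inside mitochondria. Some of these genes are made at high level in unstressed cells (Hspa8, Hsp90ab1), while Hspa1a and Hspa1b are induced by the transcription factor HSF1, which binds inverted repeats of the bases GAA known as heat shock elements.

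The upstream sequences show which members carry the letters of a heat shock element. RefSeq promoter windows (GRCm38.p6) matched 7 of the 10 members, and Hspa8, Hsp90aa1 and Hsp90ab1 had no entry. The 250 bases before the start of Hspa1a (chr17:34972157-34972406, minus strand) and of Hspa1b (chr17:34959239-34959488, minus strand) are shown first because they are near-identical. Those of Hspb1 (chr5:135887669-135887918, plus strand) follow because they hold a pair of separate repeats. Capitals mark GAANNTTC or TTCNNGAA, the only letters searched for here, each of which reads the same on both strands.
Hspa1a: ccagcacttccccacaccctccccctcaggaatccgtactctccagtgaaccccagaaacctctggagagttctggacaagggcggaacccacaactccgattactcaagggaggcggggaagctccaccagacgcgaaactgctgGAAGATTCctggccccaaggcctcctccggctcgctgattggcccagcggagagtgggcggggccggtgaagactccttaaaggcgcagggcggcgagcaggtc
Hspa1b: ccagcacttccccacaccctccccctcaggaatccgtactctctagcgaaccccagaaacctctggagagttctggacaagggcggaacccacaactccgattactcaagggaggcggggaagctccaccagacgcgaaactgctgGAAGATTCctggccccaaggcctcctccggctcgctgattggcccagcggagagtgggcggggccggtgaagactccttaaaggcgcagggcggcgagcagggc
Hspb1: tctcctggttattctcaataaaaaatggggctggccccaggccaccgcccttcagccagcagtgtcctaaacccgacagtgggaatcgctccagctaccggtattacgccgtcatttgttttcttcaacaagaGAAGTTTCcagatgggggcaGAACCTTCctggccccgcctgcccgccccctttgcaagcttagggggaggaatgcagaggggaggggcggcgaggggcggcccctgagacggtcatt

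The Hspa1a and Hspa1b windows were 98.8% identical, with 3 differences (C44T, T47C and T249G, Hspa1a base first, counted from the 5′ end of the printed stretch). The repeat began 104 bases before the start in both. Hspd1 and Hspe1, which encode HSP60 and HSP10, lie head to head on chromosome 1 and share a single 18-base run of overlapping repeats (chr1:55088059-55088076). The next lines show 30 bases around it from each side, and 30 bases at the start of Hsph1, cut short because annotated exons cover these places.
Hspd1 (chr1:55088053-55088082, minus strand): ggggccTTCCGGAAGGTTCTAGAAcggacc
Hspe1 (chr1:55088053-55088082, plus strand): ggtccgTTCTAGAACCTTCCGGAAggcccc
Hsph1 (chr5:149636351-149636380, minus strand): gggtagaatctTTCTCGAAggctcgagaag
In all, 6 of the 7 matched members had GAANNTTC or TTCNNGAA in at least 1 window, the exception being Dnajb1. Counted by window, it was 7 of the 10 windows of these members. The Hspd1 window at chr1:55088244-55088493 had none. Hspd1 and Hspe1 share their run, and the Hspa1a and Hspa1b windows are near-identical, so the matches are not independent. The same letters stood in 12.8% of 32851 mouse promoter windows of that length. A run of 3 such alternating units was found for Hspd1 and Hspe1, and in 0.466% of all windows. A match describes letters only and is not evidence of binding.

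Reads of several members cannot be assigned with certainty, because how the counting treated reads with several matches is not given in the sources used here. Of the 120-base stretches (1 read length) of the principal Hspa1a transcript, 43.2% occur letter for letter in Hspa1b, and 45.8% of those of Hspa1b occur in Hspa1a. For Hspa8, 59.3% of stretches occur in another gene, mainly the processed copy Gm15459, which had 8641 counts over the 6 samples. For Hspb1 the shared part was 55.2% and for Hsp90aa1 42.4%, in both cases with processed copies. Hspd1 shared 22.9% and Hspe1 shared 118 of its 655 stretches, while Hsp90ab1, Hsph1 and Dnajb1 shared none. With each member summed with its copies, an alternative added after seeing the data, the log2 fold change of Hspa8 between the groups described below was -0.41 in place of -0.45.

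Libraries held 9237308 to 11821588 counts. F10-intact sample 4 stood apart from the rest: its score on the first principal component (49.1% of the variance) was 91.6, against -36.7 to 12.5 in the other 5 samples. It also had the highest share of counts from mitochondrial genes, 5.75% against 2.45% to 4.58%. Genes with a count were fewest there, 20143 against 20629 to 20843. The epithelial markers Krt8 (965 to 1237 CPM), Krt18 (1078 to 1628 CPM) and Epcam (1028 to 1365 CPM) were high in every sample. Skeletal muscle markers summed to 16.0 to 145 CPM in the F10-intact samples and to 916 to 2226 CPM in the F10-deleted samples, and all 12 were higher in each F10-deleted sample. Of 6 adipocyte markers tested, Fabp4 alone had no overlap (9.75 to 14.9 and 101 to 141 CPM), and the other 5 were lower in F10-deleted sample 3 than in F10-intact sample 1. Among 5 fibroblast markers, the collagens Col1a1, Col1a2 and Col3a1 were higher without overlap, as were 8.99% of all genes. Their DESeq2 adjusted p was 1.21e-05, 5.99e-06 and 0.0039, and their edgeR adjusted p 0.0868, 0.0846 and 0.138. The rest of the list, Dcn and Pdgfra, overlapped, with edgeR log2 fold changes (F10-deleted over F10-intact) of -0.13 and 0.01. Urothelial markers summed to 1470 CPM in F10-deleted sample 3 and 149 to 424 CPM elsewhere, and seminal vesicle markers to 903 CPM in F10-deleted sample 1 and 5.41 CPM in F10-deleted sample 3. Leukocyte markers overlapped (132 to 163 and 128 to 141 CPM). In bulk tissue, fewer cells of a type and less RNA per cell cannot be told apart.

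Hsp90ab1, the constitutive cytosolic HSP90, was the most abundant member, and Hspa1a the least. Levels between genes are compared per length, as CPM (counts scaled to library size with TMM factors) per kilobase of the principal transcript. Hsp90ab1 had a median of 917 CPM per kilobase over the 6 samples (821 to 1004), and Hspa8, the constitutive HSP70, had 321 (270 to 571). These ranges did not overlap each other or that of any other member. Hsp90aa1, the inducible HSP90, followed at 95.8 (74.6 to 135), then Hspe1 at 81.7 (63.4 to 91.1), Hspb1 at 78.3 (43.3 to 94.7) and Hspd1 at 66.8 (55.6 to 81.4). Neighbours among these last 4 overlapped, so their order is not fixed by these data, and it changes when lengths are taken over all annotated exons. Dnajb1, an HSF1-driven J-domain partner of HSP70, stood at 15.2 (14.5 to 18.5) and Hsph1, an HSP110 exchange factor, at 12.6 (10.6 to 16.2), with ranges that overlapped. By this length the stress-inducible pair was lowest, Hspa1b at 7.35 (4.92 to 9.93) and Hspa1a at 3.14 (1.75 to 5.10), and both values also depend on how shared reads were divided. With lengths over all annotated exons Hsph1 (6.59) came below Hspa1b (7.35). By CPM, Hsp90ab1 ranked 20th of the 15963 genes and Hspa8 110th, whereas Hspa1a ranked 10623rd.

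**Figure D1:**
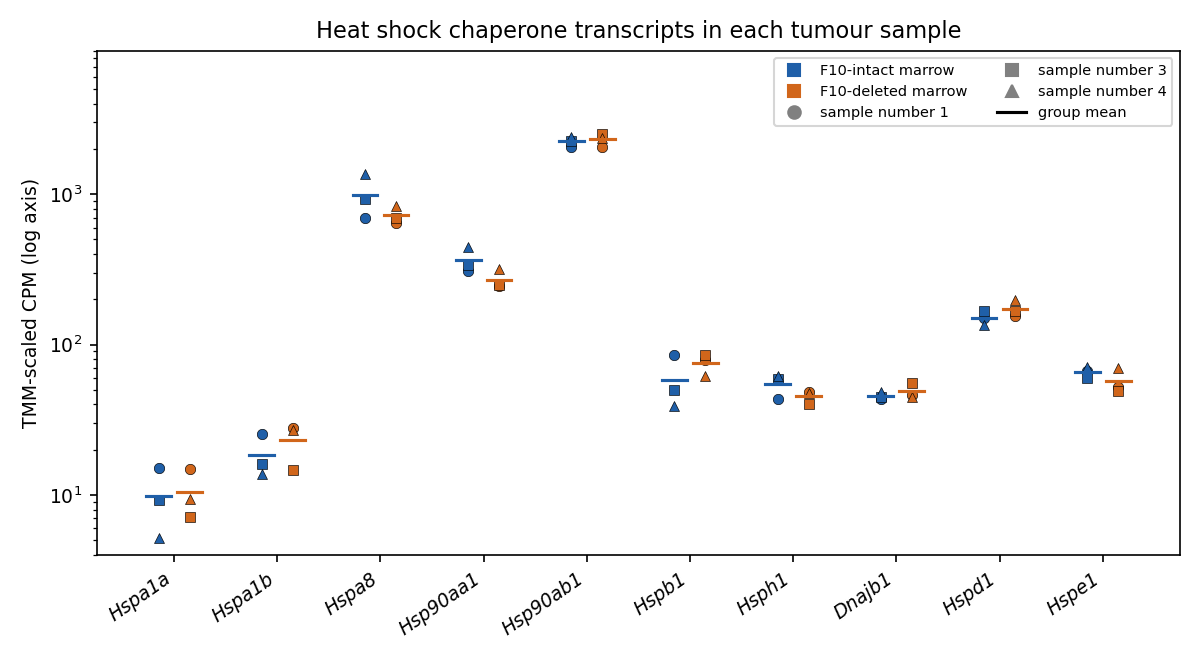
TMM-scaled CPM of the 10 chaperone genes (log axis) in each of the 6 tumour samples, coloured by marrow group and shaped by sample number, with bars at the group means (n = 3 each). The members span from 5.18 CPM for Hspa1a in F10-intact sample 4 to 2531 CPM for Hsp90ab1 in F10-deleted sample 3, and the groups overlap for every gene.

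Between the marrow groups, 0 of the 10 members rose and 0 fell in the F10-deleted tumours. The test was edgeR's quasi-likelihood test with Benjamini-Hochberg adjustment over 15963 genes, of which 0.0439% were called in either direction, all of them higher. The lowest adjusted p among the members was 0.455, for Hsp90aa1, and 1 of the 10 had an unadjusted p under 0.05, where 10.9% of all genes did (6.15% higher and 4.74% lower). DESeq2 called 2.75% of the genes it gave an adjusted p, 2.08% higher and 0.677% lower, and 0 of the members. With the replicate block edgeR called 0.0125% of genes and 0 members. Log2 fold changes (F10-deleted over F10-intact) were above 0 for 6 members and below 0 for 4 (47.3% and 52.7% of all genes), with a median of 0.06, against -0.02 over all genes tested. Groups overlapped for all 10 members, while 16.7% of all genes had groups without overlap (8.99% higher and 7.67% lower).

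**Figure D2:**
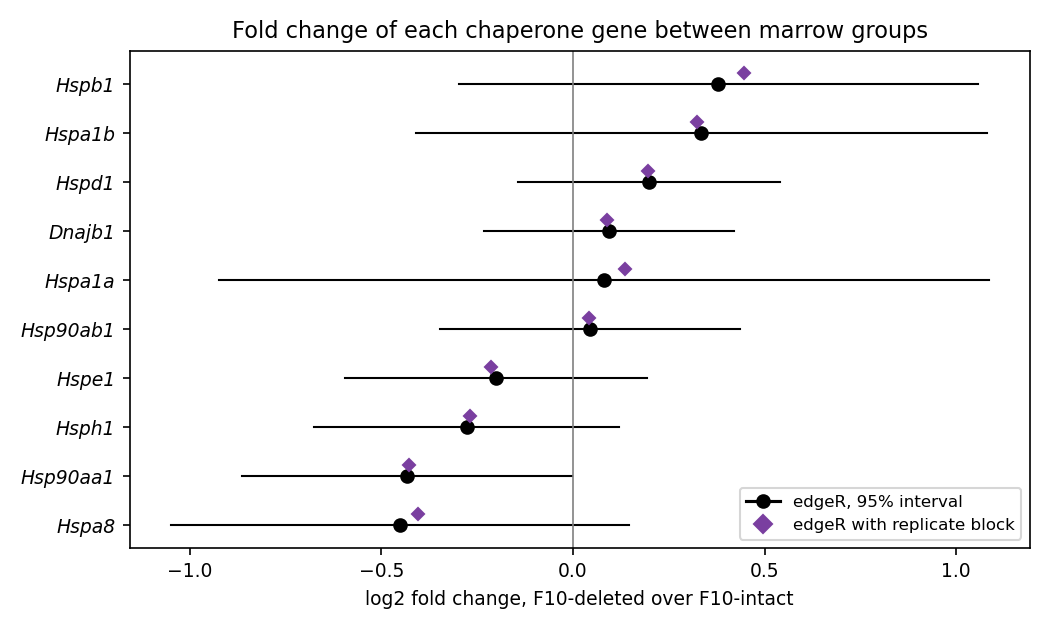
Log2 fold change of each member (F10-deleted over F10-intact) from edgeR, with its 95% interval as a line and the value from the fit with the replicate number as a block as a diamond. Hspa8 and Hsp90aa1 lie lowest at -0.45 and -0.43, Hspb1 highest at 0.38, and the Hsp90aa1 interval alone ends short of 0.

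Of the HSP90 pair, Hsp90aa1 had the smallest p of all members and Hsp90ab1 had nearly equal group means. Hsp90aa1 (ENSMUSG00000021270, chromosome 12, 110690605 to 110702728, minus strand, GRCm38) had 310, 340 and 444 CPM in F10-intact samples 1, 3 and 4 and 245, 248 and 318 CPM in F10-deleted samples 1, 3 and 4. Only F10-deleted sample 4 reached into the F10-intact range, above F10-intact sample 1. Group means of 365 ± 70.5 and 270 ± 41.6 CPM (SD, n = 3 each) gave a fitted log2 fold change of -0.43 ± 0.19 (SE, 95% interval -0.86 to -0.00326, edgeR adjusted p = 0.455). Hsp90aa1 was lower in the F10-deleted sample of each number, by 0.342 to 0.483 on the log2 scale, a pattern that 21.2% of all genes shared. With the replicate number as a block the log2 fold change was again -0.43, with an adjusted p of 0.207 in edgeR and an unadjusted p of 0.00655. In that fit 14.4% of all genes had an unadjusted p under 0.05. Without F10-intact sample 4 the log2 fold change was -0.27.

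Hsp90ab1 (ENSMUSG00000023944, chromosome 17, 45567775 to 45573271, minus strand) had 2073, 2260 and 2417 CPM in F10-intact samples 1, 3 and 4. In the F10-deleted samples it had 2070, 2531 and 2362 CPM. It varied least of all members, with a highest sample 1.22 times its lowest, and the groups lay on top of each other. Its log2 fold change was 0.04 ± 0.17 (SE, 95% interval -0.35 to 0.44, edgeR adjusted p = 0.954). The ratio of Hsp90ab1 to Hsp90aa1 counts does not depend on scaling between libraries. It was 6.68, 6.65 and 5.44 in F10-intact samples 1, 3 and 4 and 8.46, 10.2 and 7.42 in F10-deleted samples 1, 3 and 4, so the groups did not overlap. An exact two-sided permutation test gave p = 0.1, the smallest that 3 against 3 samples allow, so the test could not pass the threshold. The ratio was singled out after the values of both genes were seen.

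**Figure D3:**
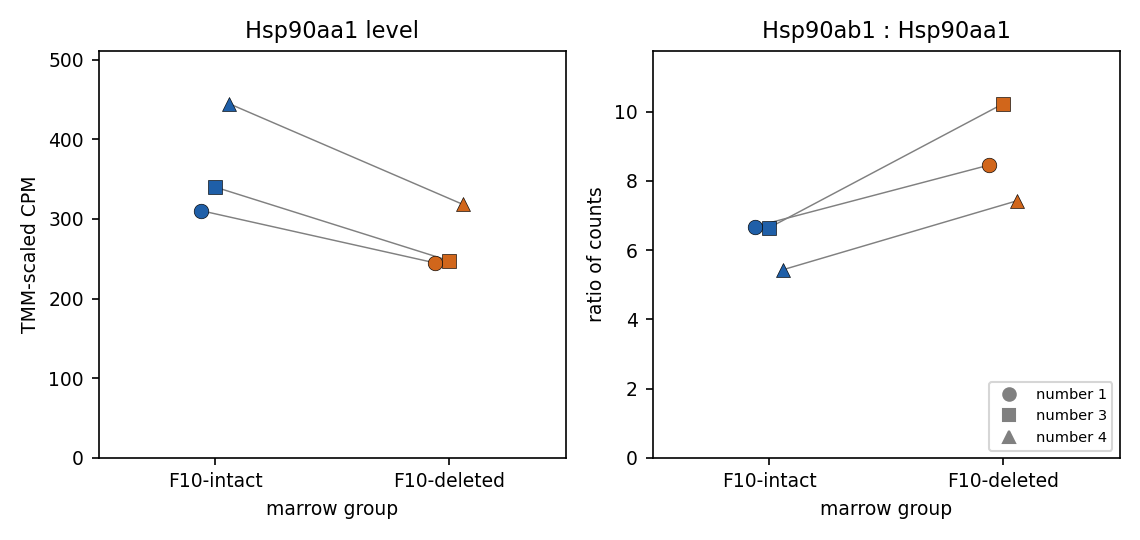
Hsp90aa1 in TMM-scaled CPM (left) and the ratio of Hsp90ab1 to Hsp90aa1 counts (right) in each sample by marrow group, with grey lines joining samples of the same number. Hsp90aa1 goes from 310 to 444 CPM in the F10-intact samples to 245 to 318 in the F10-deleted samples, and the ratio from 5.44 to 6.68 to 7.42 to 10.2.

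Among the HSP70 genes, F10-intact sample 4 was the highest sample for the constitutive Hspa8 and the lowest for the inducible Hspa1a and Hspa1b. Hspa8 (ENSMUSG00000015656, chromosome 9, 40800984 to 40810087, plus strand) had 692, 925 and 1366 CPM in F10-intact samples 1, 3 and 4 and 646, 698 and 837 CPM in F10-deleted samples 1, 3 and 4. F10-intact sample 4 stood far above the other samples, and F10-intact sample 1 lay among the F10-deleted ones. Mean levels were 994 ± 343 and 727 ± 98.9 CPM (SD, n = 3 each), and the fitted log2 fold change was -0.45 ± 0.26 (SE, 95% interval -1.05 to 0.15, edgeR adjusted p = 0.589). Leaving out F10-intact sample 4 gave -0.16, and leaving out F10-intact sample 1 gave -0.62. In the fit with the replicate block it was -0.40, at an unadjusted p of 0.0464 and an edgeR adjusted p of 0.341.

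Hspa1a (ENSMUSG00000091971, chromosome 17, 34969190 to 34972156, minus strand), a single-exon gene, had 164, 108 and 50 counts in F10-intact samples 1, 3 and 4 and 142, 84 and 110 counts in F10-deleted samples 1, 3 and 4. On the CPM scale this was 15.1, 9.26 and 5.18 against 14.9, 7.11 and 9.38. Sample 1 of each group was high and F10-intact sample 4 was lowest. The log2 fold change was 0.08 ± 0.43 (SE, 95% interval -0.92 to 1.09, edgeR adjusted p = 0.97), the widest interval of the set.

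Hspa1b (ENSMUSG00000090877, chromosome 17, 34956436 to 34959238, minus strand), also a single exon, had 25.3, 15.9 and 13.8 CPM in F10-intact samples 1, 3 and 4 and 27.8, 14.5 and 27.1 CPM in F10-deleted samples 1, 3 and 4. F10-deleted samples 1 and 4 and F10-intact sample 1 were high, and the other 3 samples were low. Its log2 fold change was 0.33 ± 0.32 (SE, 95% interval -0.41 to 1.08, edgeR adjusted p = 0.769). It was 0.67 when F10-intact sample 1 was left out and 0.17 when F10-intact sample 4 was. Hspa1b had 1.67 to 2.89 counts for each count of Hspa1a. Summed as a single feature, which does not depend on how reads were split between the copies, the pair had 40.4, 25.2 and 19.0 CPM in F10-intact samples 1, 3 and 4. The sum in F10-deleted samples 1, 3 and 4 was 42.7, 21.7 and 36.5 CPM. For the sum the fitted log2 difference was 0.25 ± 0.34 (SE, edgeR adjusted p = 0.85).

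The HSP70 partners among the members varied less. Hsph1 (ENSMUSG00000029657, chromosome 5, 149614287 to 149636376, minus strand) had 43.7, 59.5 and 61.7 CPM in F10-intact samples 1, 3 and 4 and 48.3, 40.3 and 47.5 CPM in F10-deleted samples 1, 3 and 4. F10-intact sample 1 fell inside the F10-deleted range, and the other F10-intact samples lay above it. The log2 fold change was -0.28 ± 0.17 (SE, 95% interval -0.68 to 0.12, edgeR adjusted p = 0.618). Dnajb1 (ENSMUSG00000005483, chromosome 8, 83608193 to 83612653, plus strand) had 43.5, 44.9 and 48.7 CPM in F10-intact samples 1, 3 and 4 and 46.0, 55.3 and 45.0 CPM in F10-deleted samples 1, 3 and 4. Only F10-deleted sample 3 stood out. Its log2 fold change, 0.09 ± 0.14 (SE, edgeR adjusted p = 0.871), had the narrowest 95% interval of the set, -0.23 to 0.42.

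Hspb1, the small heat shock protein HSP25 of mouse (ENSMUSG00000004951, chromosome 5, 135887919 to 135889563, plus strand), had 85.5, 49.6 and 39.1 CPM in F10-intact samples 1, 3 and 4 and 79.2, 85.3 and 62.2 CPM in F10-deleted samples 1, 3 and 4. F10-intact samples 3 and 4 were lowest, and F10-intact sample 1 was level with the highest F10-deleted sample. The log2 fold change was 0.38 ± 0.29 (SE, 95% interval -0.30 to 1.06, edgeR adjusted p = 0.704). Leaving out F10-intact sample 1 gave 0.80, with an edgeR adjusted p of 0.136, and leaving out F10-intact sample 4 gave 0.16. Hspb1 is also made in muscle and in basal and squamous epithelium. Smooth muscle markers (Acta2, Myh11, Cnn1) summed to 1954, 1170 and 479 CPM in F10-intact samples 1, 3 and 4 and to 1474, 1460 and 732 CPM in F10-deleted samples 1, 3 and 4. Basal markers (Krt5, Krt14, Trp63) summed to 714, 412 and 304 CPM and to 1110, 1005 and 698 CPM in the same order. Both lists were lowest in F10-intact sample 4, as Hspb1 was. So were the skeletal muscle (16.0 CPM), adipocyte (11.5 CPM), endothelial (Pecam1, Cdh5, Kdr, 13.1 CPM) and urothelial (149 CPM) lists. The leukocyte, fibroblast, prostate luminal and seminal vesicle lists were lowest in other samples. A lowest value in that sample was therefore not particular to smooth muscle or basal markers. The part of any list in the values of Hspb1 was not tested.

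The mitochondrial pair had fold changes of opposite sign, neither past the test. Hspd1 (ENSMUSG00000025980, chromosome 1, 55077835 to 55088243, minus strand) had 151, 169 and 135 CPM in F10-intact samples 1, 3 and 4 and 156, 168 and 197 CPM in F10-deleted samples 1, 3 and 4. Only F10-deleted sample 4 lay above the F10-intact range. Its log2 fold change was 0.20 ± 0.15 (SE, 95% interval -0.14 to 0.54, edgeR adjusted p = 0.688). Hspe1 (ENSMUSG00000073676, chromosome 1, 55088132 to 55091307, plus strand) had 66.8, 59.7 and 70.5 CPM in F10-intact samples 1, 3 and 4 and 52.2, 49.1 and 70.2 CPM in F10-deleted samples 1, 3 and 4. F10-deleted samples 1 and 3 were the lowest of the 6, and F10-deleted sample 4 matched the F10-intact ones. Its log2 fold change was -0.20 ± 0.17 (SE, 95% interval -0.59 to 0.19, edgeR adjusted p = 0.736). The annotated exons of Hspd1 and Hspe1 overlap by 112 bases on opposite strands, and no source used here states whether the counting used strand.

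**Figure D4:**
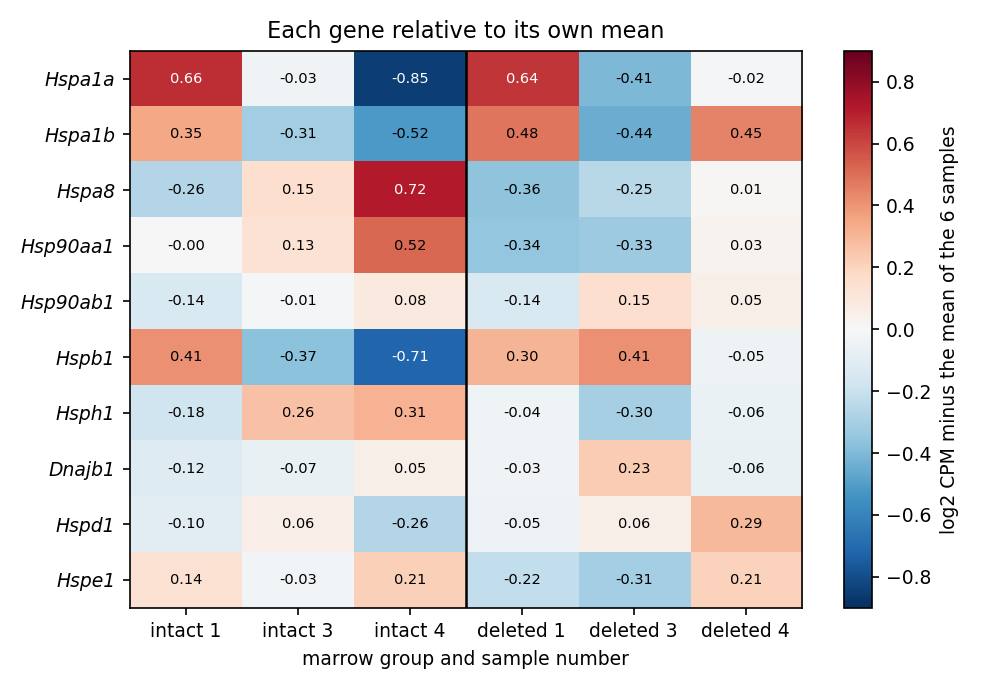
Each member's log2 CPM (prior count 2) minus its own mean over the 6 samples, by marrow group and sample number. F10-intact sample 4 holds the highest values of Hspa8 (0.72) and Hsp90aa1 (0.52) and the lowest of Hspa1a (-0.85) and Hspb1 (-0.71).

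F10-intact sample 4 held the highest level of 4 members (Hspa8, Hsp90aa1, Hsph1 and Hspe1) and the lowest of 4 others (Hspa1a, Hspa1b, Hspb1 and Hspd1). F10-deleted sample 1 and F10-intact sample 1 were the highest samples for the Hspa1 sum and the lowest for Hsp90ab1 and Hspa8. The members together took 0.354%, 0.388% and 0.422% of the counts in F10-intact samples 1, 3 and 4 and 0.349%, 0.398% and 0.408% in F10-deleted samples 1, 3 and 4, so the groups overlapped. Leaving out F10-intact sample 1 left 4 members without overlap between the groups, with Hspa8, Hsp90aa1 and Hsph1 lower and Hspb1 higher in the F10-deleted tumours. In that subset 30.2% of all genes had no overlap.

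The genes whose profiles came closest to the mean profile of Hspa1a and Hspa1b were sought among 10659 genes with a mean of at least 10 CPM. Likeness was the root-mean-square difference between centred log2 CPM values over the 6 samples. Among the closest were Slc7a7, an amino acid transporter subunit (0.115), Gm15564 (0.138), Usp2, a deubiquitinase (0.154), and Trerf1 (0.159). A flat profile would differ from the Hspa1 profile by 0.465. Of the other members, Hspb1 came nearest at 0.383 and Hspa8 was farthest at 0.774. Set against the 10659 genes, Hspb1 ranked only 970th in likeness.

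The wider chaperone network was read from 7 lists, with an eighth of immediate early genes, which respond to growth signals and to handling of tissue. In all 8 lists, 0 genes rose and 0 fell over all genes tested with edgeR. DESeq2 called 3 in these lists (Hspa5, Dnajc10 and Hspb3, which was too low for the edgeR filter). Over all genes that DESeq2 gave an adjusted p, it called 2.75%. Of the HSF transcription factors and their regulators, 4 of 5 tested had values below 0 (median log2 fold change -0.04). Hsf1 itself, the master regulator of the heat shock response, was at 41.3, 31.1 and 41.6 CPM in F10-intact samples 1, 3 and 4 and 44.1, 34.7 and 32.2 CPM in F10-deleted samples 1, 3 and 4. Its log2 fold change was -0.04 ± 0.18 (SE, edgeR adjusted p = 0.967). Hsbp1, a small protein that binds HSF1, was at -0.32 ± 0.16 without overlap between the groups (edgeR adjusted p = 0.529). Its relative Hsbp1l1 was at -0.91 ± 0.40 and Hsf2, a second HSF, at 0.11 ± 0.17 (edgeR adjusted p = 0.462 and 0.877).

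The list of other HSP70 family genes and HSP70 partners was split. Of 25 tested genes, 11 were above 0, with a median of -0.03, and 47.3% of all genes were above 0. The smallest p-values belonged to Dnajb2 (-0.53 ± 0.15), a J-domain protein, Dnajb4 (0.29 ± 0.12), another, and Stub1 (-0.39 ± 0.17), the ubiquitin ligase CHIP, with edgeR adjusted p of 0.27, 0.449 and 0.451. Among HSP90 co-chaperones, 12 of 14 were below 0 (median -0.15), the direction of Hsp90aa1. Fkbp4, an immunophilin of steroid receptor complexes, was at -0.37 ± 0.14 and Ahsa1, which stimulates the HSP90 ATPase, at -0.41 ± 0.16, both without overlap between groups (edgeR adjusted p = 0.38 and 0.393). Ahsa2 was at -0.52 ± 0.26 (edgeR adjusted p = 0.527). Over all genes, 52.7% were below 0 and 7.67% were lower without overlap.

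Mitochondrial chaperones and proteases had a median of -0.07, with 5 of 14 above 0. Hspa9, the mitochondrial HSP70, stood at 0.18 ± 0.15, Clpp, a matrix protease subunit, at -0.57 ± 0.25 and Grpel2, an exchange factor, at 0.44 ± 0.22 (edgeR adjusted p = 0.723, 0.462 and 0.53). The TRiC chaperonin and prefoldin list had a median of -0.05 with 6 of 14 above 0, led by the prefoldin subunit Pfdn5 at -0.36 ± 0.13 (edgeR adjusted p = 0.375). Immediate early genes had 12 of 14 above 0 and a median of 0.25. Only 2 of the 14 were higher without overlap, Jun at 0.40 ± 0.12 and Egr2 at 0.88 ± 0.33 (edgeR adjusted p = 0.28 and 0.38). Over all genes, 47.3% were above 0 and 8.99% were higher without overlap. Fos had 27.0, 42.2 and 80.0 CPM in F10-intact samples 1, 3 and 4 and 72.7, 110 and 83.5 CPM in F10-deleted samples 1, 3 and 4. Its lowest sample, F10-intact sample 1, was among the highest for Hspa1a and Hspa1b. Other genes of the list differed from Fos, and Ier2 and Junb were highest in sample 1 of each group. Ier2 had 61.6, 31.8 and 54.3 CPM in F10-intact samples 1, 3 and 4. In F10-deleted samples 1, 3 and 4 it had 60.8, 37.4 and 30.8 CPM. A relation of this list to Hspa1a and Hspa1b was not tested.

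Most ER chaperones of the same families had lower values in the F10-deleted tumours. Of 11 tested, 10 were below 0, 8 were lower in every F10-deleted sample than in any F10-intact one, and the median was -0.42. Over all genes, 52.7% were below 0 and 7.67% were lower without overlap. The muscle and collagen markers given above also differed between these groups, and their part in the ER values was not tested. Hspa5, the ER HSP70 known as BiP, had 883, 1114 and 1242 CPM in F10-intact samples 1, 3 and 4 and 674, 572 and 751 CPM in F10-deleted samples 1, 3 and 4, without overlap (log2 fold change -0.70 ± 0.19 SE, edgeR adjusted p = 0.237, DESeq2 adjusted p = 0.0281). Dnajc10, an ER J-domain reductase, had 1320, 2560 and 3893 CPM in F10-intact samples 1, 3 and 4. F10-deleted samples 1, 3 and 4 had 1007, 1116 and 1231 CPM, so F10-intact sample 1 lay close to them and F10-intact sample 4 far above. The log2 fold change of Dnajc10 was -1.21 ± 0.36 (edgeR adjusted p = 0.287, DESeq2 adjusted p = 0.0202). Hyou1, an ER HSP110 relative, was at -0.42 ± 0.13 (edgeR adjusted p = 0.291, DESeq2 adjusted p = 0.18). Hsp90b1, the ER HSP90, was at -0.41 ± 0.16 (edgeR adjusted p = 0.412), close to Hsp90aa1. Whether the ER and cytosolic sets differ was not tested.

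**Figure D5:**
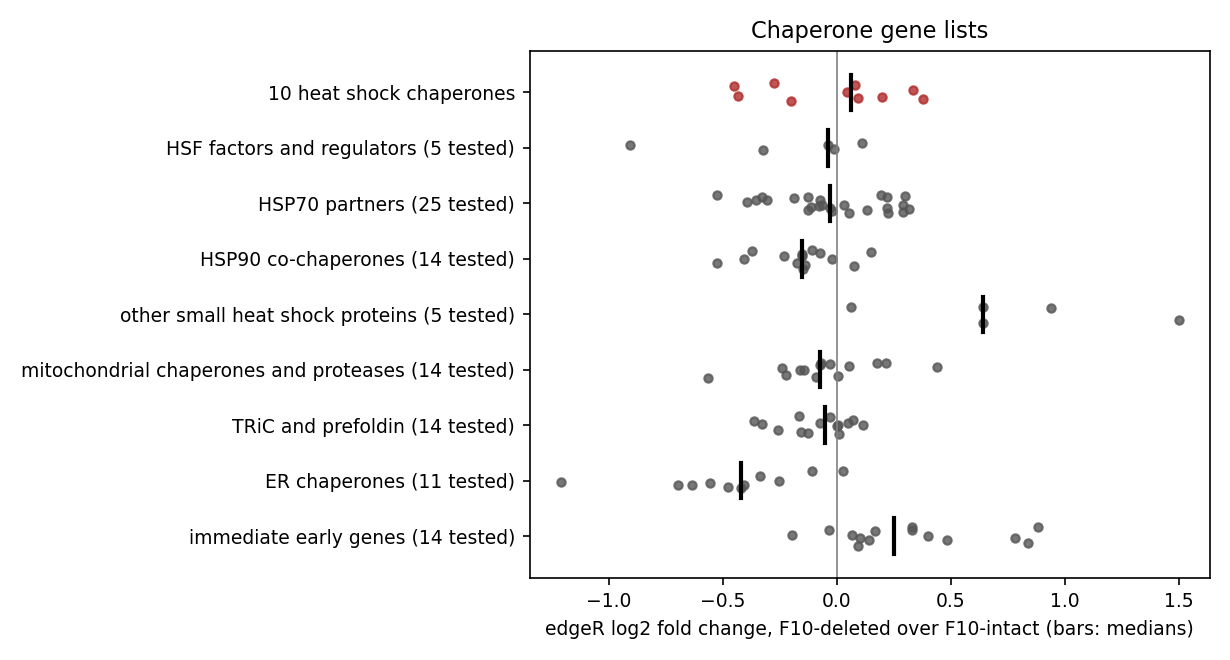
edgeR log2 fold changes (F10-deleted over F10-intact) of the 10 members and of the tested genes of 8 lists, each point a gene and each bar a list median. The members sit on both sides of 0, the ER list has its median at -0.42 and the other small heat shock proteins at 0.64.

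The other small heat shock proteins, most of them abundant in muscle, were all 5 above 0 with a median of 0.64. Of all genes tested, 47.3% were above 0. Hspb6 was at 16.8, 14.7 and 9.95 CPM in F10-intact samples 1, 3 and 4 and 28.1, 18.1 and 33.4 CPM in F10-deleted samples 1, 3 and 4, without overlap (log2 fold change 0.94 ± 0.28 SE, edgeR adjusted p = 0.287). Cryab, the alpha-B crystallin, was at 37.1, 16.9 and 7.98 CPM and at 36.8, 19.5 and 40.8 CPM in the same order, and F10-intact sample 1 lay among the F10-deleted samples. Its log2 fold change was 0.64 ± 0.54 (SE, edgeR adjusted p = 0.733). Hspb2, the neighbour of Cryab in the genome, had means of 0.732 ± 0.446 and 2.13 ± 0.985 CPM in the F10-intact and F10-deleted samples (SD, n = 3 each, edgeR adjusted p = 0.401). Hspb7, a small heat shock protein of heart and skeletal muscle, was at 0.64 ± 0.51 (edgeR adjusted p = 0.717). Hspb8 was nearly level between the groups, at 0.06 ± 0.20 (edgeR adjusted p = 0.944). It had 44.8, 39.1 and 65.7 CPM in F10-intact samples 1, 3 and 4. F10-deleted samples 1, 3 and 4 had 54.9, 50.6 and 50.7 CPM, so Hspb8 was highest in F10-intact sample 4. Skeletal muscle markers were higher in every F10-deleted sample and lowest in F10-intact sample 4, as given above. Their part in the values of the small heat shock proteins was not tested.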

How the data were processed

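Stranded poly-A libraries of 6 tumour samples were read from one end over 120 bases, as the labels' protocols say. A single table holds raw read counts by Ensembl identifier, as deposited by the authors. STAR 2.7.10a, DESeq2 and the build GRCm38 are named in the submitters' processing notes. Neither the counting program nor its annotation is named in the sources used here. GENCODE M21 (GRCm38) supplied symbols and positions for 21605 identifiers, and 113 had none.

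The test was edgeR 4.0.16 (R 4.3.3): quasi-likelihood, robust, TMM factors, filterByExpr with a minimum count of 10, group as the only term, Benjamini-Hochberg threshold 0.05. The standard error is the log2 fold change divided by the root of the F statistic. The script was tested on simulated data. DESeq2 1.42.0 and limma 3.58.1 (voom) served as alternatives. Per-length levels used the longest APPRIS principal transcript. Deviations from the group means correlated between samples of equal number (0.350, 0.135 and 0.181 for numbers 1, 3 and 4). Samples of unequal number were not compared, so these values do not show that the numbers are pairs. A fit with the number as a replicate block was run as an alternative. Chi-square per degree of freedom between samples of a group was 22.3 to 77.5, above counting noise, so no library appears to be deposited more than once. Whether samples came from separate tumours is not shown by this.

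The members and lists were chosen with earlier results of these data known. Named were all 10 members, up to 3 genes of each list with the smallest p, and the 5 nearest profiles. Some items under this rule are not reported here. Hsf1, Hspa9, Hsp90b1, Cryab and Hspb8 were added after their values were seen.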

Additional observations from a re-analysis of the deposited data

How the results depend on the processing

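With each alternative, 0 of the 10 members passed the adjusted threshold in either direction, and the fold changes of 9 members kept their direction. The threshold of 0.1 and the non-robust fit cannot change a fold change and are not counted for this. Hspa1a turned, at -0.00455 with limma-voom and quality weights, and ranging from -0.228 to 0.553 with 1 sample left out (below 0 when F10-intact 4 or F10-deleted 1 was missing). The cause was not tested. The count of members with an unadjusted p under 0.05 was 1 in the main edgeR fit, where 10.9% of all genes had one. It was 0 with upper quartile or RLE scaling and with factors computed without the 50 most abundant genes. A filter of 1 CPM in 3 samples and the non-robust fit also gave 0. The replicate block gave 2 (Hspa8 and Hsp90aa1), where 14.4% of all genes had one. Quality weights gave 3, and leaving 1 sample out gave 0 to 4. The share over all genes was not taken with quality weights or with 1 sample left out. With 1 sample left out, 0 to 4 of the 10 members had no overlap between groups, where 21.3% to 31.0% of all genes had none. The median log2 fold change of all 10 members then ranged from -0.0257 (F10-intact sample 4 missing) to 0.0630.

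Over all genes, 7 were called higher and 0 lower. The counts were 371 and 121 with DESeq2, 160 and 15 with quality weights, 84 and 1 at an adjusted p under 0.1, and 1 and 1 with the replicate block. Higher calls were 2 with limma-voom, 2 with the 1 CPM filter and 3 with the non-robust fit. With 1 sample left out they ranged from 0 to 56 higher and 0 to 16 lower. The block changed no other call of a member. Hspa1a had the fewest counts of the members, 50 to 164 per library.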
